A study of Mus musculus with 9 samples.

Results

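The comparison described here sets a RAW264 clone labelled as mutated in exon 5 of Zscan10 (KO2) against RAW264 control cells. Its members were all genes with a normalised value of at least 10 in at least 3 of the 9 RNA-seq libraries of the study, which 9564 of 23420 listed genes met. The third-highest value was 10.2 for the gene just inside that filter and 9.98 for the gene just outside it. KO2 and control had 3 libraries each, 6 of the 9, and the other 3 came from KO1, a clone labelled as mutated in exon 2.

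RAW264 cells are a mouse line with macrophage features. Given the cytokine RANKL they can turn into bone-resorbing osteoclasts, and none of these cultures received it. All groups were grown in the same medium with fetal serum. The mutations were made with Cas9 and a guide RNA carried on a ZsGreen1 vector, electroporated into the cells, which were then sorted as single cells, so KO2 is taken here as 1 clone. The labels repeat this protocol for the control libraries, with "none; control" as their mutation site, and do not say whether control cells were transfected, sorted or grown from 1 cell. A change in KO2 can therefore not be told apart from a difference between single-cell clones. Each clone's value columns are numbered by its labelled exon, but its raw reads are named with the other clone's number, so the exon assignment is uncertain. The labels do not state that a group's 3 libraries were separate cultures, and p-values then measure only the spread between these libraries.

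Zscan10 encodes a zinc finger protein with a SCAN domain, best known as a transcription factor of mouse embryonic stem cells, and by its title the series concerns a brake that it puts on osteoclast formation. Osteoclasts arise from macrophage-lineage cells when RANKL binds its receptor RANK and raises AP-1 and NFATc1. Interferon signalling and several transcription factors of the macrophage lineage hold that step back.

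Zscan10 had 0 reads in each of the 9 libraries, so the reads check neither the mutation nor its exon. The gene is on chromosome 17, plus strand (mm10, 23600856 to 23611019). The labelled exon, number 5 of 6 in the annotated transcript, is a coding exon of 58 bases at chr17:23608108-23608165, shown because it is the site the label names. The guide sequence was not used here.
Zscan10 exon 5: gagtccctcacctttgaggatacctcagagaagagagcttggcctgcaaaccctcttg

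Marker genes of the macrophage lineage were present in both groups, but many differed in level. Of 22 tested macrophage identity genes 6 rose and 11 fell in KO2 by the test described below. That is 77.3% called, against 22.5% of all tested genes. The macrophage colony stimulating factor receptor gene Csf1r read 6027, 5959 and 6052 normalised reads (reads divided by the authors' size factor of each library) in the 3 control libraries and 5692, 5839 and 5609 in KO2. Marker lists of T cells, B cells, red cells, neutrophils and mast cells, fibroblasts and osteoblasts, and epithelium and endothelium had no member above the filter. In bulk libraries such as these, fewer cells of a type and less RNA per cell cannot be told apart.

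Between KO2 and control 2152 genes differed, 22.5% of those tested, with limma p-values adjusted by Benjamini-Hochberg across all 9564 and a threshold of 0.05. Of these, 1020 were higher in KO2 (10.7% of the tested genes) and 1132 were lower (11.8%). The larger the change, the more the balance lay with lower genes. At 2-fold or more 158 genes were higher and 250 lower, at 4-fold 36 and 86, and at 8-fold 11 and 41. KO2 and control libraries did not overlap for 2039 of the 2152 called genes, against 34.5% of all tested genes. The authors' deposited table of this pair of groups marked 2011 of the 9548 genes found in both tables as significant, and 1711 of those were also called here, all in the same direction. That is 85.1% of the authors' significant genes and 79.7% of the genes called here.

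A set of genes was read in control cells and nearly silent in KO2. Over the 3 KO2 libraries 41 called genes had 3 reads or fewer, and 16 of them had none. The serotonin receptor gene Htr1b read 38.4, 49.1 and 37.8 normalised reads in the control libraries and 0 in all 3 KO2 libraries, at least 40.7-fold lower against a floor of 3 reads over the group (adjusted p = 1.90e-21, limma). Lama4, which encodes a laminin chain of basement membranes, read 52.3, 66.8 and 59.8 in control and 0 in KO2, at least 57.9-fold lower (adjusted p = 8.26e-16, limma). No control library came near the KO2 libraries for either gene. The sodium channel gene Scn11a, the CNNM family gene Cnnm1 and the guidance cue gene Sema5a were likewise at 0 reads in KO2, at least 50-fold, 41.6-fold and 36.9-fold lower than control.

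Others kept a trace. Chst1, a sulfotransferase of keratan sulfate, read 59.3, 55 and 67.1 in control and 0, 0.982 and 0 in KO2, a ratio of 176 with a 95% counting interval of 31.3 to 7005 (188 reads against 1). The phosphatase gene Ppm1e read 43.6, 38.3 and 42 in control and 0.943, 0.982 and 1.18 in KO2, a ratio of 40.4 (interval 13.5 to 198). Ranbp3l, which encodes a nuclear export adaptor of SMAD proteins, fell 56.8-fold from 92.5, 83.5 and 78.7 to 0.943, 0 and 3.54 (adjusted p = 9.64e-23, limma). Each of these genes lay between 38 and 93 normalised reads in every control library and below 4 in every KO2 library.

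KO1 differed among these genes. Of the 41 genes nearly silent in KO2, 15 also had 3 reads or fewer in KO1. Lama4 and Scn11a were at 0 reads in all 3 KO1 libraries too. Htr1b stayed at 32, 30.9 and 36.6 in KO1, and its difference between the clones was -5.09 ± 0.32 on the log2 scale (mean ± SE, adjusted p = 1.86e-20, limma). Ranbp3l read 63.9, 72.9 and 50.8 and Ppm1e 30.9, 31.9 and 22.4 in KO1, both far above KO2, with differences of -4.93 ± 0.29 (adjusted p = 3.21e-21) and -3.84 ± 0.30 (adjusted p = 1.23e-16).

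Switches in the other direction were fewer. Only 5 called genes had 3 reads or fewer over the control libraries, 2 of them with none. Ltbp2, which encodes a matrix protein of the latent TGF-beta binding family, had 0 reads in control and 42.5, 55 and 53.1 normalised reads in KO2, at least 51.9-fold higher (adjusted p = 2.15e-15, limma). Tfec, a MiT-family transcription factor of macrophages, had 0 reads in control and 29.2, 26.5 and 41.3 in KO2, at least 33-fold higher (adjusted p = 5.73e-19, limma). Tfec was also read in KO1, at 29.9, 25 and 47.8, and the clones differed there by only -0.05 ± 0.34 (log2, adjusted p = 0.939). Src, the tyrosine kinase that organises the sealing zone of osteoclasts, read 0.872, 0 and 0 in control, 12.3, 12.8 and 10.6 in KO2 and 1.03, 0 and 1.02 in KO1. Its ratio of KO2 to control was 37.3 with an interval of 6.27 to 1515, from 1 control read against 35. Zfyve9, an adaptor of TGF-beta receptors, and Kirrel3, an adhesion protein, completed the set, with ratios of 48.5 (interval 13 to 406) and 30.4 (8.03 to 257).

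**Figure D1:**
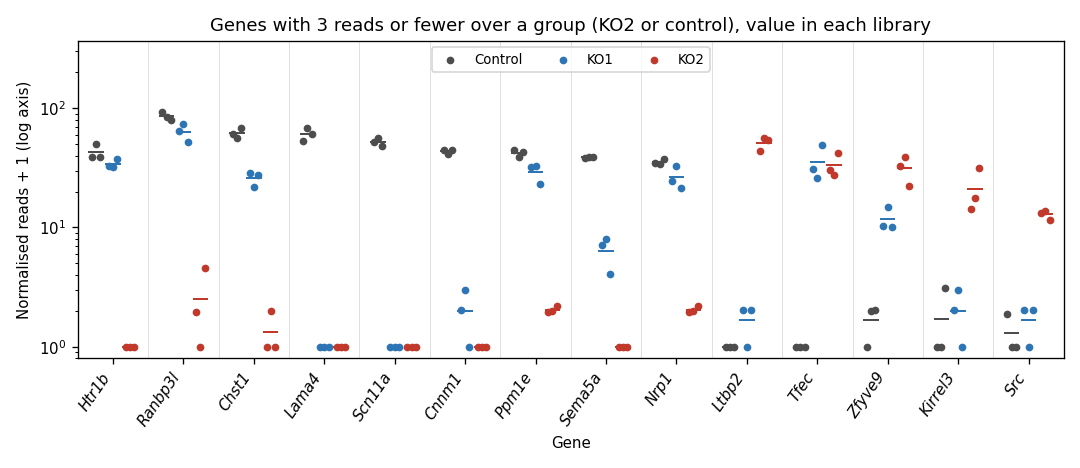
Value of each library (points) and group mean (short lines) in normalised reads plus 1 on a log axis for 14 genes that were nearly silent in KO2 (the first 9) or in control (the last 5). Ranbp3l had 4 reads over the KO2 libraries and so lies just outside the set with 3 reads or fewer that the title names. Lama4 and Scn11a sat at 0 reads in both clones, whereas Htr1b, Ranbp3l, Ppm1e and Nrp1 were far lower in KO2 than in KO1 or control.

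Chromosome 12 carried a share of the changes out of proportion to its size. Of its 347 tested genes 157 were higher in KO2 (45.2%) and 13 lower (3.75%), and their median log2 change was 0.28, a ratio of 1.21. The other 19 chromosomes had medians between -0.036 and 0.0044 and between 6.18% and 12.3% of their genes higher. The rise ran the length of the chromosome, since its 12 windows of 10 Mb, with 7 to 64 tested genes each, all had medians between 0.20 and 0.37. Chromosome 12 took 3.43%, 3.45% and 3.47% of the reads in the control libraries and 4.15%, 4.16% and 4.16% in KO2, a ratio of 1.21, and the libraries did not overlap. In KO1 the share was lower than in control, 2.87% to 2.88%. Expression cannot count chromosome copies, and no copy number was measured in these files.

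Most chromosome 12 genes moved by little. Of its 157 risers 43 reached 1.5-fold, a share of 27.4%, while 35.1% of the risers elsewhere did. The genes that rose most on it were Ltbp2, Sdc1, Fos, Flrt2, Actn1 and Jdp2. Sdc1, which encodes the heparan sulfate proteoglycan syndecan-1, rose 5.21-fold from 20.9, 20.6 and 21 to 105, 109 and 112 (log2 change 2.33 ± 0.18, adjusted p = 2.65e-16, limma). Flrt2, which encodes an adhesion and guidance receptor, rose 2.59-fold from 50.6, 50.1 and 57.7 to 135, 147 and 129. Actn1, which encodes the actin cross-linker alpha-actinin 1, rose 2.43-fold from 144, 155 and 134 to 365, 350.5 and 338. These genes were picked as the largest risers, so rises above the 1.21 ratio of the chromosome's median follow from that choice. The groups did not overlap for any of them, as for 94.7% of all called genes.

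The genes that fell on chromosome 12 went against that median. Zfp36l1, which encodes a protein that speeds decay of AU-rich mRNAs, fell 3.65-fold from 67.2, 75.6 and 74.5 to 25.5, 24.5 and 9.44 (adjusted p = 8.28e-11, limma). Evl, which encodes an actin-polymerising protein of the Ena/VASP family, fell 2.44-fold from 105, 100.2 and 102 to 40.6, 51.1 and 34.2. The acid-sensing receptor gene Gpr65 and the deacetylase gene Hdac9 each fell 1.49-fold, to 94.4 ± 15.1 and 74.5 ± 4.02 (mean ± SD, n = 3). Batf, a partner of AP-1 and IRF factors, read 14, 21.6 and 11.5 in control and 0.943, 0.982 and 0 in KO2, a ratio of 23 (interval 6.03 to 195).

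Without chromosome 12 the comparison kept its main features and its balance moved further toward lower genes. Of the 9217 tested genes elsewhere 1982 were called (21.5%), 863 higher (9.36%) and 1119 lower (12.1%). At 2-fold or more 145 were higher and 245 lower. A fit that left the chromosome out before testing called 1960 genes, 850 higher and 1110 lower. No gene list with 5 or more tested members and a median log2 change of at least 0.1 in size changed the sign of its median without the chromosome. Sel1l, the single gene of the endoplasmic reticulum list that rose, and 3 of the 15 lysosomal genes that rose lie on it. The call of Sel1l was lost without Control replicate 1 (adjusted p = 0.107) or KO2 replicate 3 (adjusted p = 0.129) and in limma on the authors' table of FPKM values (adjusted p = 0.126).

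**Figure D2:**
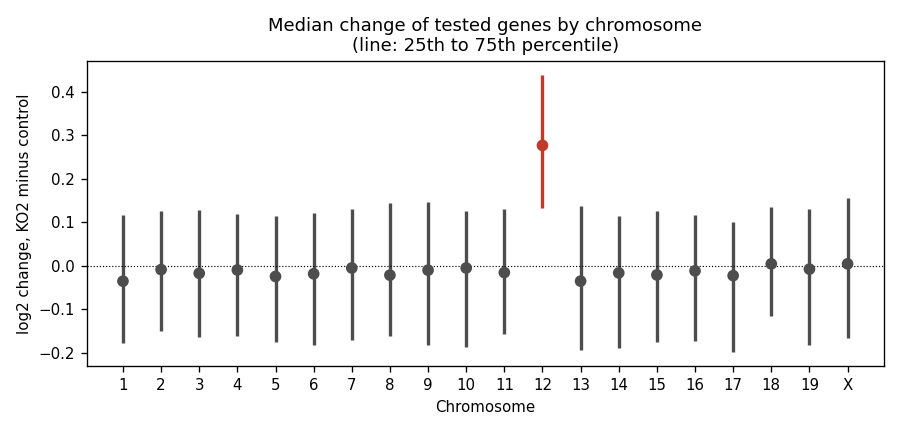
Median log2 change of tested genes from control to KO2 for each chromosome (points), with the 25th to 75th percentile of genes (lines). Chromosome 12 (red) stands at 0.28, and the medians of the other 19 lie between -0.036 and 0.0044.

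Counts in the gene lists that follow stand beside the 10.7% of all tested genes that rose and the 11.8% that fell. Groups without overlap stand beside the 34.5% of all tested genes for which this held. Transcription factors and early response genes of macrophages moved in both directions. Of 33 tested lineage transcription factors 9 rose and 10 fell, with a median log2 change of -0.10 against -0.0087 over all tested genes. In 3 of the 33 every library of KO2 or of control was under 10. Such genes passed the filter through groups where they were higher, so here and in later lists they have no weight in the counts. Lists given without such a number held 2 or fewer. Ets2, an ETS factor downstream of the MAP kinase cascade, fell 3.71-fold from 368 ± 10.0 to 99.3 ± 2.26 (log2 change -1.88 ± 0.084, adjusted p = 1.11e-26, limma). Mef2c, a MADS-box factor of myeloid cells, fell 2.29-fold from 589, 632 and 638 to 291, 264 and 256 (adjusted p = 1.12e-24, limma). Egr1, an immediate early factor of macrophage differentiation, fell 5.02-fold from 137, 147 and 128 to 29.2, 30.4 and 22.4 (adjusted p = 4.47e-20, limma). In each case every KO2 library was below every control library, and each gene was also lower in KO2 than in KO1, with KO2 minus KO1 differences of -1.25 ± 0.084, -0.83 ± 0.059 and -1.48 ± 0.15 on the log2 scale (adjusted p = 5.58e-19, 6.74e-18 and 9.34e-13, limma).

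Irf8, which directs monocytes away from the osteoclast fate, fell 2.06-fold from 128, 141 and 147 to 69.8, 75.6 and 56.6 (adjusted p = 1.20e-10, limma). Irf4, its close relative, fell 5.62-fold from 12.2, 10.8 and 22 to 5.66, 0 and 2.36. The nuclear receptor gene Rxra, a partner of PPAR and LXR receptors, rose 2.26-fold from 31.4, 29.5 and 28.3 to 71.7, 73.6 and 56.6.

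Of 25 tested AP-1 and immediate early genes 7 rose and 5 fell, and 3 of the 25 had every library of KO2 or of control under 10. Dusp6, the phosphatase that switches off ERK and is itself an ERK target, fell 16.2-fold from 40.1, 26.5 and 30.4 to 2.83, 1.96 and 1.18 (log2 change -3.50 ± 0.29, adjusted p = 2.88e-15, limma). KO1 stayed at 37.1, 33.9 and 33.5, so the clones differed by -3.62 ± 0.29 (adjusted p = 5.93e-16). Jun, the AP-1 partner of Fos, fell 1.82-fold from 49.6 ± 5.67 to 27.2 ± 2.58, while Fos rose 3.43-fold. Myc, a driver of growth, read 0.872, 2.95 and 8.39 in control and 11.3, 17.7 and 8.26 in KO2. Its groups overlapped slightly and the call (adjusted p = 0.00161, limma) was lost without Control replicate 1 (adjusted p = 0.0507).

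Cytokine receptor genes gave more falls than rises. Of 24 tested receptors and ligands of the colony stimulating factor and interleukin families 2 rose and 10 fell, with a median log2 change of -0.18. In 2 of the 24 every library of KO2 or of control was under 10. Csf3r, the receptor for granulocyte colony stimulating factor, fell 6.07-fold from 49.7, 66.8 and 40.9 to 4.72, 11.8 and 9.44 (adjusted p = 1.36e-10, limma). Il21r, the interleukin-21 receptor gene, read 11.3, 10.8 and 15.7 in control and 0, 0.982 and 0 in KO2, a ratio of 36.6 (interval 6.19 to 1482). Il4ra, the shared receptor chain for interleukins 4 and 13, read 28.8, 18.7 and 35.7 in control and 6.6, 9.82 and 13 in KO2 (2.83-fold lower, adjusted p = 8.48e-05, limma). None of these 3 genes had overlapping groups. Il10ra fell 1.8-fold to 53.2 ± 1.41 and Il18rap 2.22-fold to 52.3 ± 4.56, whereas Csf1r was lower by 1.05-fold (adjusted p = 0.0215, limma), a call lost on leaving out Control replicate 1, Control replicate 3, KO2 replicate 1 or KO2 replicate 3 (adjusted p = 0.0603 to 0.116). It was also lost with DESeq2, without a filter on low values and on the FPKM table (adjusted p = 0.0657, 0.0585 and 0.205). Without KO2 replicate 1 only 1 member of this list was called higher.

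For the TNF superfamily 1 of 16 tested members rose and 7 fell, with a median log2 change of -0.44. In 4 of the 16 every library of KO2 or of control was under 10, so these have no weight in the counts. The member that rose was Tnfrsf11a, which encodes RANK. Ltb, which encodes lymphotoxin beta, fell 8.23-fold from 106, 111 and 119 to 13.2, 9.82 and 17.7 (log2 change -2.98 ± 0.23, adjusted p = 1.66e-16, limma). Tnfrsf1b, the second TNF receptor gene, fell 1.63-fold from 114 ± 15.1 to 69.7 ± 7.05. Tnf itself read 236, 254 and 252 in control and 181, 187 and 179 in KO2, 1.36-fold lower (adjusted p = 7.91e-06, limma). In KO1 Tnf read 229.8, 267 and 245. The count of members that rose was 2 without Control replicate 2, KO2 replicate 1 or KO2 replicate 3.

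Among 27 tested targets and feedback regulators of NF-kB 2 rose and 14 fell, with a median log2 change of -0.44. Cd83, an activation antigen, fell 4.42-fold from 53.2, 51.1 and 60.8 to 14.2, 7.85 and 15.3 (adjusted p = 3.30e-11, limma). Tnfaip3, which encodes the ubiquitin editor A20, fell 2.53-fold from 44.5, 47.1 and 37.8 to 18.9, 15.7 and 16.5. Nfkbiz, a nuclear IkB protein gene, fell 2.07-fold to 15.5 ± 1.91. Both feedback genes lay below control in every KO2 library. Only 1 member of this list was called higher without Control replicate 3.

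Pattern recognition genes split by receptor. Of 30 tested Toll-like receptors, lectins, co-receptors and adaptors 6 rose and 11 fell, and 4 of the 30 had every library of KO2 or of control under 10. Tlr4, the receptor for lipopolysaccharide, rose 1.74-fold from 133, 143 and 119.6 to 241, 235 and 215 (adjusted p = 1.28e-10, limma). Its co-receptor genes went the other way, with Ly96 (MD-2) lower by 1.86-fold, from 21.8, 19.6 and 23.1 to 8.49, 10.8 and 15.3, and Cd14 by 1.27-fold, from 1657 ± 72.3 to 1302 ± 20.5. The call of Ly96 was lost without Control replicate 1, Control replicate 3 or KO2 replicate 1 (adjusted p = 0.0514, 0.063 and 0.113) and with DESeq2 (adjusted p = 0.125). Ly86 (MD-1), the partner of the Tlr4-like protein RP105, fell 2.17-fold from 809, 843 and 762 to 376, 396 and 342. Clec4n, which encodes the fungal lectin receptor dectin-2, rose 6.46-fold from 7.85, 3.93 and 8.39 to 39.6, 42.2 and 48.4 (log2 change 2.58 ± 0.26, adjusted p = 2.37e-12, limma). Related lectin receptor genes Clec7a, Clec4d and Clec4e rose too. Tlr8 rose 3.4-fold to 19.6 ± 5.29, and the peptidoglycan sensor gene Nod2 fell 2.97-fold to 4.52 ± 1.49.

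Surface receptors for antibody, apoptotic cells and inhibition gave 10 rises and 10 falls among 31 tested genes. In 3 of the 31 every library of KO2 or of control was under 10. Fcgr2b, the inhibitory Fc receptor gene, fell 7.86-fold from 225, 236 and 194 to 29.2, 24.5 and 29.5 (adjusted p = 2.21e-23, limma). Cd33, a sialic acid binding inhibitory receptor gene, fell 3.14-fold from 222, 235 and 194 to 66, 65.8 and 75.5. Axl, a receptor kinase for apoptotic cells, read 14, 17.7 and 19.9 in control and 0, 1.96 and 3.54 in KO2. KO1 was low for these genes too, where Fcgr2b read 32, 38.9 and 28.5, Cd33 75.2, 60.9 and 58.9 and Axl 0, 2.99 and 1.02. By contrast Cd300a, another inhibitory receptor gene, rose 2.03-fold from 167, 163 and 187 to 347, 351 and 347 and stayed at 145, 182 and 156 in KO1, a difference of 1.11 ± 0.082 between the clones (adjusted p = 2.27e-17).

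**Figure D3:**
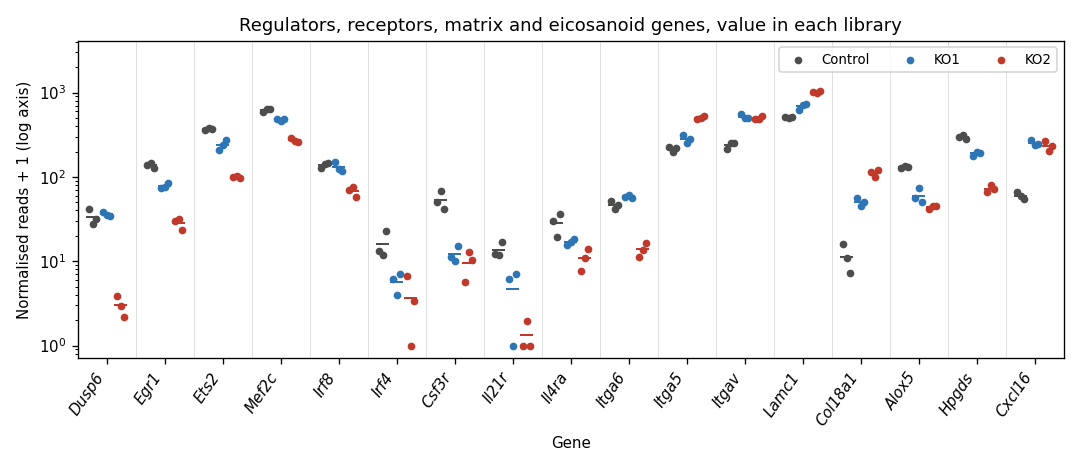
Value of each library (points) and group mean (short lines) in normalised reads plus 1 on a log axis for 17 transcription factor, receptor, matrix and eicosanoid genes named in the text. Dusp6 and Itga6 are low in KO2 alone of the 3 groups, whereas Cxcl16 and Itgav are above control in both clones.

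Several genes of the extracellular matrix were higher in KO2. Of 56 listed matrix proteins and proteases only 14 passed the filter, and 10 of those rose and 3 fell. For 2 of the 14 every library of KO2 or of control was under the filter's value, so they passed through the group where they were high. Col18a1, the collagen XVIII gene, rose 10.7-fold from 14.8, 9.82 and 6.29 to 114, 99.2 and 119 (adjusted p = 8.24e-21, limma). Lamc1, a laminin chain gene, rose 2.01-fold from 512, 498 and 508 to 1019.9, 998 and 1035. The lowest KO2 library exceeded the highest control library for both. The urokinase pair divided, with the receptor gene Plaur up 1.67-fold to 95.5 ± 2.29 and the protease gene Plau down 1.86-fold to 235 ± 3.65. Spp1, which encodes osteopontin, fell 1.38-fold from 7167 ± 188 to 5179 ± 42, while KO1 rose to 11385 ± 440.5.

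Integrin genes divided as well. Of 10 tested integrin genes 4 rose and 4 fell. Itga5, the fibronectin receptor chain, rose 2.36-fold from 228, 194 and 218 to 486, 499 and 525 (adjusted p = 8.33e-22, limma). The vitronectin receptor chain gene Itgav, whose protein also serves osteoclast attachment, rose 2.08-fold from 216, 253 and 251 to 483, 482 and 533, and its partner Itgb5 rose 1.53-fold. The laminin receptor chain gene Itga6 fell 3.56-fold from 51.5, 40.3 and 45.1 to 10.4, 12.8 and 15.3 (adjusted p = 2.11e-10, limma). KO1 kept Itga6 at 56.7, 60.9 and 55.9. The leukocyte chains Itga4 and Itgam fell 1.37-fold and 1.37-fold.

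Of 39 tested cytoskeletal genes of podosomes and the cortex 5 rose and 16 fell, with a median log2 change of -0.07. Zyx, which encodes the focal adhesion protein zyxin, fell 2.14-fold from 61.9, 50.1 and 65 to 32.1, 24.5 and 26. Coro1a, which encodes the actin regulator coronin 1A, fell 1.54-fold from 1463, 1372 and 1496 to 896, 1015 and 898. The actin-severing protein gene Gsn (gelsolin) rose 1.95-fold from 264, 242 and 231 to 465, 494 and 474 (adjusted p = 1.46e-18, limma), alongside Actn1 and Src. Among guidance receptors Plxnd1 fell 2.36-fold and Plxnc1 2.14-fold, while Plxna2 rose 2.1-fold to 103 ± 11.8.

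Chemokine genes with a test were few, and 5 of 12 rose and 3 fell. Cxcl16, a membrane-bound chemokine that also takes up oxidised lipoprotein, rose 3.95-fold from 65.4, 57.9 and 53.5 to 262, 202 and 234 (log2 change 1.96 ± 0.099, adjusted p = 2.71e-24, limma). Cxcl14 rose 2.26-fold from 187, 196 and 166 to 429, 409 and 402. Ccl2, the monocyte attractant gene, rose from 6.11, 4.91 and 11.5 to 18.9, 17.7 and 30.7 (2.98-fold, adjusted p = 0.00158, limma). Cxcl16 and Cxcl14 also rose in KO1, and the clones did not differ past the threshold (KO2 minus KO1 differences of -0.13 ± 0.099 and -0.03 ± 0.067, adjusted p = 0.393 and 0.799). Ccl2 was lower in KO1 than in control, at 2.03 ± 0.0326.

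Eicosanoid enzymes that act on arachidonate products were among the steepest falls in metabolism. Of 20 tested genes of prostaglandin and leukotriene synthesis and reception 3 rose and 5 fell. Hpgd, which encodes the dehydrogenase that inactivates prostaglandins, read 315, 300.5 and 286 in control and 0, 0 and 1.18 in KO2. It was also low in KO1, at 13.4, 24 and 23.4. Alox5, the first enzyme of leukotriene synthesis, fell 3.05-fold from 126, 135 and 131 to 40.6, 44.2 and 43.7 (adjusted p = 7.82e-14, limma). KO1 was below control for Alox5 too, at 55.7, 72.9 and 48.8. Hpgds, the haematopoietic prostaglandin D synthase gene, fell 4.16-fold from 297, 315 and 279 to 65.1, 78.5 and 70.8 (log2 change -2.04 ± 0.092, adjusted p = 1.34e-26, limma). The leukotriene receptor gene Cysltr1 fell 1.79-fold to 22.1 ± 2.27. Ptgs1, the constitutive cyclo-oxygenase gene, rose 1.78-fold from 39.3, 34.4 and 28.3 to 59.4, 67.7 and 54.3, and fell in KO1 to 16.5, 16 and 16.3.

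Lipid handling genes rose in 12 of 33 tested cases and fell in 3, with a median log2 change of 0.16. Cd36, the fatty acid and oxidised lipoprotein receptor gene, rose 2.56-fold from 765, 887 and 791 to 2080.4, 2009.7 and 2163 (adjusted p = 5.44e-35, limma). The falls were in Abca1 and Abcg1, the cholesterol exporters, and Ppard, a lipid-sensing nuclear receptor gene. Abca1 read 41, 38.3 and 39.9 in control and 17.9, 25.5 and 14.2 in KO2 (2.07-fold lower, adjusted p = 2.91e-04, limma). Ppard fell 2.62-fold from 27, 50.1 and 40.9 to 11.3, 19.6 and 14.2. Of 35 tested sterol and fatty acid synthesis genes 3 rose and 13 fell, but 7 fell without Control replicate 3 and 8 without KO2 replicate 3.

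Iron and copper genes gave 8 rises and 4 falls among 29 tested. Tfrc, the transferrin receptor gene, rose 1.49-fold from 1245, 1369.7 and 1434 to 2019, 1956 and 2062 (adjusted p = 4.67e-19, limma). Steap3, the endosomal ferrireductase gene, rose 2.67-fold from 22.7, 16.7 and 15.7 to 50.9, 49.1 and 47.2, and Slc11a1, the phagosomal metal exporter gene, rose 1.94-fold to 229 ± 10.8. The groups did not overlap for any of these 3 genes. Hp, which encodes the haemoglobin scavenger haptoglobin, and Cp, the copper ferroxidase gene, were the deep falls of the list, with Cp going from 188, 208 and 207 to 5.66, 4.91 and 5.9 and Hp from 64.6, 43.2 and 60.8 to 0 reads in KO2. KO1 read 140.2, 165 and 159.5 for Cp but 0, 0 and 1.02 for Hp. For Steap3 KO1 read 18.6, 19 and 15.2, and the clones differed by 1.44 ± 0.23 (adjusted p = 5.98e-07).

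Lysosomal genes were divided evenly, with 15 of 68 tested members higher and 16 lower. A pair of hydrolase genes gave opposite examples. Arsb, which encodes the sulfatase of dermatan sulfate, fell 2.54-fold from 669, 704 and 648 to 284, 270.0 and 241 (adjusted p = 3.18e-27, limma). Ctsf, a cathepsin gene, rose 2.48-fold from 52.3, 54 and 61.9 to 139, 137 and 140.4 (adjusted p = 5.29e-13, limma). Cathepsin E (Ctse) fell 41.3-fold from 77.6, 76.6 and 82.9 to 3.77, 1.96 and 0, and cathepsin H (Ctsh) 45.9-fold from 255, 254 and 257 to 4.72, 4.91 and 7.08. Arsb did not fall in KO1, where it read 669, 695 and 617, whereas Ctsh was also low there, at 1.03, 4.99 and 1.02.

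Chaperones and folding enzymes of the endoplasmic reticulum were lower as a group. Of 52 tested members 32 fell and 1 rose, with a median log2 change of -0.28. Herpud1, an adaptor of protein degradation, fell 2.02-fold from 202, 176 and 196 to 92.5, 96.2 and 95.6 (adjusted p = 1.58e-13, limma). Sdf2l1, a cofactor of the chaperone BiP, fell 2.0-fold from 397, 403 and 427 to 212, 206 and 196. Creld2, an isomerase gene, fell 1.97-fold from 428, 405 and 406 to 219, 201 and 208 (adjusted p = 7.02e-20, limma). KO1 stood above control for this gene, with 506, 539 and 546, and 40 of the 52 members differed between the clones, against 26.5% of all tested genes.

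Many genes of this class carry the endoplasmic reticulum stress element in their promoters, which the factors NF-Y and ATF6 bind. The element was searched as CCAAT and CCACG with 9 bases of any kind between them, on both strands in the 250 bases before each RefSeq gene start (GRCm38.p6, the same assembly as mm10). RefSeq windows were matched by symbol to 7306 of the 9564 tested genes. Among list members, 22 of the 32 that fell and 16 of the 20 others had a window. The element was present in 8 of 23 promoters of the members that fell (34.8%) and in 0 of 18 promoters of the members that did not, against 11 of 9334 promoters of all tested genes (0.118%). As the element is known from this class of genes, its presence in members has no weight of its own, and the split by falls was not tested. The 8 genes, also counted in the 11, were Calr, Canx, Creld2, Dnajc3, Hsp90b1, Hspa5, Pdia6 and Syvn1. A match is a run of letters and not a measured binding site. Promoters of 3 of them are shown 5′ to 3′ on the strand of the gene, with the matched run in capitals. They belong to the 3 of the 8 genes that fell most.
Creld2 (chr15:88819396-88819645, plus strand, match on the reverse strand): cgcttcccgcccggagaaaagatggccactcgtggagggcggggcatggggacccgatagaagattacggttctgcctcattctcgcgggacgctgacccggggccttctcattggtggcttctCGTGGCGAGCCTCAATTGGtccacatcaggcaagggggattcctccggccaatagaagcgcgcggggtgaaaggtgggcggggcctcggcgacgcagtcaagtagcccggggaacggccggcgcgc
Dnajc3 (chr14:118937682-118937931, plus strand): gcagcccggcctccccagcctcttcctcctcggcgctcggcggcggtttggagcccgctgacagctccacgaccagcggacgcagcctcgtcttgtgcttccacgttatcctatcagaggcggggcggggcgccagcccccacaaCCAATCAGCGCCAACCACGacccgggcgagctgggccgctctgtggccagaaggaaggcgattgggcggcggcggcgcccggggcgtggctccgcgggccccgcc
Hspa5 (chr2:34771840-34772089, plus strand): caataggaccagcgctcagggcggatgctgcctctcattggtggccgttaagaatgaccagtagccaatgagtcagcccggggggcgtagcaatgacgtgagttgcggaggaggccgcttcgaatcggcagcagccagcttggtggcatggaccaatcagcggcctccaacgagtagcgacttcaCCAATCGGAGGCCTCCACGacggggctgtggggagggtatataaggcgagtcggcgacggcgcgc

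Dnajc3, a BiP co-chaperone and inhibitor of the kinase PERK, fell 1.61-fold from 425, 427 and 433 to 265, 277 and 258 (adjusted p = 2.20e-14, limma). Hspa5, which encodes BiP itself, fell 1.53-fold from 5669, 5862 and 5617 to 3774, 3628 and 3789 (adjusted p = 6.05e-28, limma). The 3 genes with the promoters shown thus fell between 1.53-fold and 1.97-fold. Genes of amino acid synthesis and transport under ATF4 gave 9 falls and 2 rises among 30 tested, with Phgdh, the first enzyme of serine synthesis, lower by 1.81-fold from 929, 873 and 944 to 484, 515 and 516. The count of rises in this ATF4 list was 1 without Control replicate 1 or KO2 replicate 3.

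**Figure D4:**
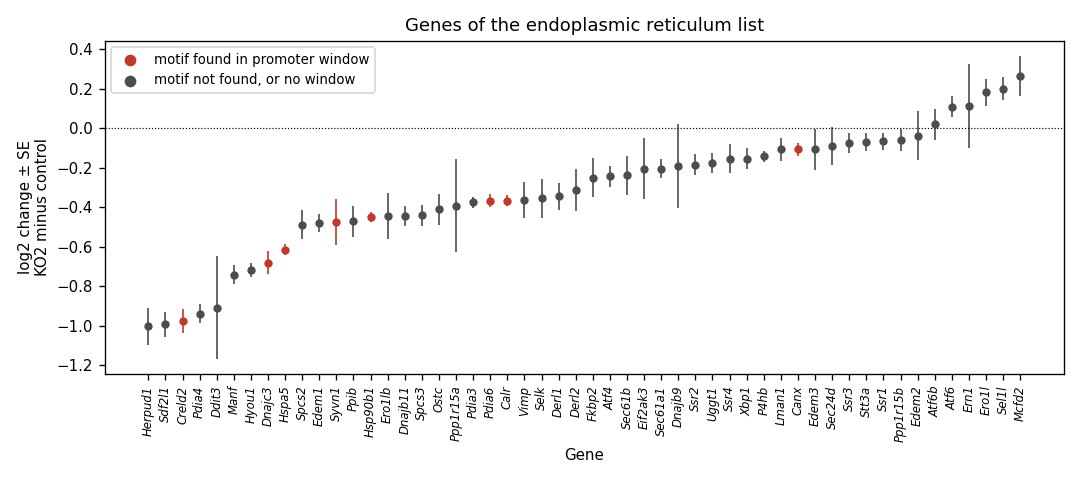
Log2 change from control to KO2 with its standard error for the 52 tested genes of the endoplasmic reticulum list, ordered by size. Red points are the 8 genes with the stress element in the 250 bases before the gene start, all below 0, and grey points are genes without it or without a promoter window.

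Interferon-induced genes were the list with the largest share of falls. Of 68 tested members 54 fell and none rose, with a median log2 change of -0.97. For 10 of the 68 every library of KO2 and control was under the filter's value, so these passed through KO1, and 7 of them fell. Members with fewer than 3 of these 6 libraries at 10 also needed KO1 to pass, Isg15 among them, and were not counted. For 17 of the 68 every library of KO2 or of control was under 10. Rtp4, a chaperone of surface receptors, fell 10.9-fold from 31.4, 29.5 and 31.5 to 3.77, 0 and 4.72 (adjusted p = 4.64e-14, limma). Irf7, the factor that amplifies interferon production, fell 3.0-fold from 28.8, 40.3 and 37.8 to 12.3, 12.8 and 10.6 (adjusted p = 4.23e-11, limma). Ly6e, a surface protein gene that restricts viral entry, fell 4.25-fold from 2363, 2289 and 2354 to 548, 554 and 545 (adjusted p = 2.45e-47, limma). All 68 members were higher in KO1 than in control, and all 68 differed between the clones, against 26.5% of all tested genes. For the 10, and for other members that needed KO1 to pass, the filter itself required high KO1 values, so they have no weight in either count. A list of interferon receptors and signalling genes, which shares at least Usp18 with the interferon-induced list, had a median log2 change of -0.13. Its counts, not independent of those above, were 2 rises and 9 falls among 26 tested genes. Among these, Tmem173, which encodes the DNA-sensing adaptor STING, fell 2.24-fold from 99.4, 117 and 121 to 55.7, 46.1 and 48.4, and Ifngr2, a chain of the interferon gamma receptor, rose 1.53-fold to 249.7 ± 21.1.

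Genes of antigen presentation on MHC class I, which interferons also induce, were lower too. Of 20 tested members 13 fell and 1 rose, with a median log2 change of -0.39. Calr and Canx are members both of this list and of the endoplasmic reticulum list, and at least Tap1 is also in the interferon-induced list. The counts of these lists are therefore not independent. Reads of the H2 genes may be split between near-identical copies. B2m, the invariant light chain, fell 1.63-fold from 1259.7, 1247 and 1289 to 818, 748 and 761 (adjusted p = 2.21e-21, limma). Psmb8, an immunoproteasome subunit gene, fell 1.65-fold from 165, 172 and 174 to 108, 113 and 89.7, and Tap1, a peptide transporter gene, fell 1.93-fold from 52.3, 53 and 54.6 to 34.9, 26.5 and 21.2. KO2 lay below control in every library for these 3 genes, and in KO1 each was above control, at 1436 ± 48.8, 275 ± 28.2 and 127 ± 3.65.

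The interferon-stimulated response element of promoters that interferons switch on was searched as GAAA, 2 bases of any kind and GAAA, on both strands in the same promoter windows. It was present in 20 of 69 promoters of the tested members (29.0%), against 241 of 9334 promoters of all tested genes (2.58%). Members that fell held it in 16 of 55 promoters (29.1%) and members that did not in 4 of 14 (28.6%). This split was not tested. Among the members with the element that did not fall, Gbp7 (means of 2.87 in control and 1.69 in KO2) and Ifit1 (3.28 and 3.09) lay near the floor. A fall is hard to call at that level, so the split cannot show whether the element goes with falls. Promoters of 2 members with the element are shown, with matched runs in capitals. In the first, 3 matches overlap.
Isg15 (chr4:156200819-156201068, minus strand): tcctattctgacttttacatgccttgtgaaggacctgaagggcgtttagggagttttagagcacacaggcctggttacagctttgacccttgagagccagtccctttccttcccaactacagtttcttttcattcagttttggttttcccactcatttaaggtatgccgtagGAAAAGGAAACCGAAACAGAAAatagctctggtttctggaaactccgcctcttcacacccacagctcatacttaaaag
Rsad2 (chr12:26456453-26456702, minus strand, match on the reverse strand): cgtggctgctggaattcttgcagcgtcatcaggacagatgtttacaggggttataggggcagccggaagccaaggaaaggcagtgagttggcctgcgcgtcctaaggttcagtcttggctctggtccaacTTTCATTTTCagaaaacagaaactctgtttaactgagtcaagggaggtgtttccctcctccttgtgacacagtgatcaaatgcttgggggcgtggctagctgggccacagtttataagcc

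Isg15, a ubiquitin-like modifier gene, read 5.23, 6.87 and 17.8 in control, 0.943, 0.982 and 2.36 in KO2 and 119, 94.8 and 91.5 in KO1. Rsad2, which encodes the antiviral enzyme viperin, read 8.72, 2.95 and 1.05 in control, 0.943, 0 and 0 in KO2 and 44.3, 33.9 and 44.7 in KO1. The control libraries were already low for both, and the lowest control value of Rsad2 lay next to its highest KO2 value. The fall in KO2 was called for both (adjusted p = 1.34e-06 and 0.00173, limma), from 30 reads against 4 and from 14 reads against 1 over the group, and that of Rsad2 was lost without Control replicate 1 (adjusted p = 0.0725).

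Energy and growth lists other than glycolysis moved by little. Of 65 tested nuclear genes of oxidative phosphorylation 13 fell and 1 rose, with a median log2 change of -0.054, and 6 fell without Control replicate 1 and 7 without Control replicate 3 or KO2 replicate 2. Of 59 ribosomal protein genes 17 fell and 1 rose, and 9 fell without Control replicate 1 and 10 without Control replicate 3. Of 56 replication and mitosis genes 6 rose and 9 fell, and 3 rose without Control replicate 1. In the list of glycolysis and hypoxia genes 11 of 33 tested members rose and 5 fell, so 48.5% were called. The steepest of those falls was in Slc2a6, a lysosomal hexose transporter gene, which fell 2.99-fold from 303, 296 and 322 to 108, 105 and 95.6 (adjusted p = 2.07e-23, limma). For these lists apart from glycolysis the share of members called was near the 22.5% of all tested genes or depended on 1 library.

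**Figure D5:**
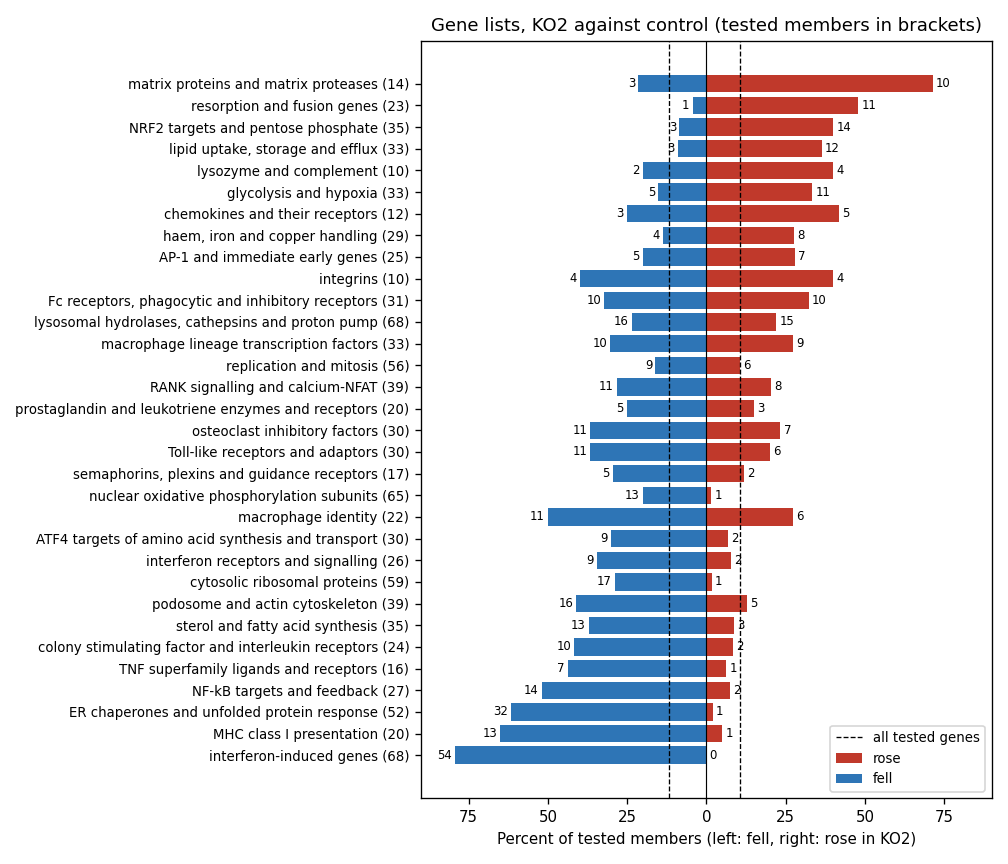
Percent of tested members that rose (right) or fell (left) in KO2 for each gene list with 10 or more tested members, with the number of genes at each bar. Dashed lines mark the 10.7% and 11.8% of all tested genes that rose and fell. The interferon-induced, MHC class I and endoplasmic reticulum lists lie furthest to the left and the matrix list, of which 14 of 56 members passed the filter, furthest to the right.

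Among called genes that changed at least 1.5-fold, near-identical families left out, the largest differences of mean normalised reads included the following. Lpl, the secreted lipase of lipoproteins, rose from 2701, 2885 and 2812 to 6470.3, 6387 and 6796 normalised reads (adjusted p = 6.45e-40, limma). Ank, which exports phosphate compounds including pyrophosphate, rose 2.51-fold from 1118, 1117 and 1139 to 2720.0, 2892 and 2862. Vim, the intermediate filament gene vimentin, rose 2.22-fold from 1014, 1019 and 1007 to 2301, 2197 and 2262. Serinc3, a membrane protein gene, fell 2.05-fold from 3431, 3586 and 3525 to 1694, 1722 and 1725 (adjusted p = 4.57e-35, limma). Gnb1, a G protein beta subunit gene, fell 1.87-fold from 1765, 1954 and 1767 to 1013, 979 and 935. No KO2 library overlapped a control library for these genes. The proton carrier gene Ucp2, the scaffold gene Ahnak, the cathepsin gene Ctsl and the esterase gene Esd rose between 1.63-fold and 2.37-fold. Mpeg1, which encodes the pore-forming protein perforin-2 of macrophages, fell 2.14-fold from 1154 ± 46.6 to 540.5 ± 20.3, and Gas7, which binds actin filaments, fell 2.39-fold from 1068 ± 28 to 447 ± 36.7.

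Among genes of middling level, Cd24a, a surface glycoprotein gene, fell 82.1-fold from 126, 139 and 148 to 1.89, 1.96 and 1.18. Tmem26, a membrane protein gene, rose 5.73-fold from 74.2, 84.4 and 67.1 to 436, 389.8 and 468 (adjusted p = 3.37e-32, limma). Anpep, the surface aminopeptidase CD13 gene, rose 5.63-fold from 21.8, 18.7 and 19.9 to 103, 117 and 120.4 and stayed at 20.6, 23 and 14.2 in KO1. Olfml3, a secreted glycoprotein gene, rose 8.3-fold from 9.6, 3.93 and 5.25 to 51.9, 52 and 51.9. Angptl2, a secreted angiopoietin-like protein gene, rose 4.8-fold from 24.4, 30.4 and 33.6 to 142, 146 and 137 and fell in KO1 to 10.3, 4.99 and 9.15. The calcineurin inhibitor gene Rcan1 rose 5.57-fold to 361 ± 4.64, the splicing factor gene Rbfox1 10.1-fold to 51.7 ± 5.35 and the chromatin gene Morc4 17.1-fold to 51.8 ± 2.22. The complement gene C3 and the protease inhibitor gene Slpi, both secreted, went down instead, 6.98-fold to 10.2 ± 5.11 and 7.67-fold to 8.48 ± 2.03.

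Both clones share the control libraries, so their changes against control are not independent, and the contrast of KO2 with KO1 was used to see where they differ. Of the 2152 genes called in KO2, 1302 also differed between KO2 and KO1, where 2533 genes were called in all (26.5%). Against control, 720 of the 2152 were called in the same direction in KO1, 307 in the opposite direction and 1125 were not called. These counts and the 26.5% include chromosome 12, whose median log2 change against control was 0.28 in KO2 and -0.28 in KO1. They also include chromosome 16 from 70 to 100 Mb, where window medians in KO1 were -0.76, -0.95 and -0.74. In KO2 those medians were -0.14, -0.043 and -0.0023. The clone counts were not made without these regions, so their share of the opposite calls was not tested.

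For genes linked to osteoclasts, 8 of 39 tested genes of RANK signalling rose and 11 fell, and 11 of 23 tested resorption and fusion genes rose and 1 fell. Of all tested genes 10.7% rose and 11.8% fell. In 3 of the 39 and 2 of the 23 every library of KO2 or of control was under 10. These passed the filter through groups where they were higher, so their direction has no weight. The resorption gene that fell was Car2, the carbonic anhydrase gene, which read 1525, 1487 and 1504 in control, 853, 868 and 833 in KO2 and 2703, 2852 and 2885 in KO1. Nfatc1, the factor that commits cells to the osteoclast fate, rose 3.4-fold from 151, 166 and 176 to 542, 537 and 598 and stayed at 166, 156 and 155 in KO1. Cd109, a surface protein gene that binds TGF-beta, rose 2.82-fold from 95.1, 110.0 and 95.5 to 292, 281 and 276 (adjusted p = 4.23e-21, limma). Of 30 tested inhibitors of osteoclast formation 7 rose and 11 fell, and 3 of the 30 likewise had every library of KO2 or of control under 10. Cd200r1, an inhibitory receptor gene of myeloid cells, fell 5.13-fold from 22.7, 19.6 and 26.2 to 4.72, 3.93 and 4.72 (adjusted p = 4.11e-08, limma), against 17.5, 18 and 18.3 in KO1. Nrp1, a semaphorin co-receptor gene that restrains osteoclast formation, read 34, 33.4 and 36.7 in control, 0.943, 0.982 and 1.18 in KO2 and 23.7, 31.9 and 20.3 in KO1.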

How the data were processed

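Stranded mRNA libraries were prepared from DNase-treated total RNA of RAW264 cells, per the labels' protocols. The authors' shared table, named for TMM, gives a normalised signal for each gene in each of 9 libraries, where read counts had been divided by a library-wide factor. Every value was a whole multiple of a step per library within 1e-06 (100% in each), so the reads behind it were recovered, 1821703 to 2458539 per library. A deposited table of this pair of groups holds the authors' FPKM values, scaled within that table, and q-values, used only where named. The submitters' processing notes list mm10, edgeR 3.20.1 and featureCounts 1.4.6, and also Cufflinks 2.1.1 and TopHat2 2.0.22, without saying what each was used for. Whether counting used strand is not given in the sources used here, so overlapping genes on opposite strands may share reads.

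Log2 of the normalised reads plus 1 was fitted with limma-trend (limma 3.58.1, R 4.3.3) by group over all 9 libraries, keeping genes that reached 10 in 3 or more libraries. On this scale changes of low genes are understated. A gene was called below 0.05 after Benjamini-Hochberg adjustment across the tested genes. A fold against a group at 0 reads is a lower bound set at 3 reads over the group. For 1 to 3 reads the ratio has a 95% exact counting interval. Without molecular identifiers such intervals and floors describe counting error alone.

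The members and gene lists were chosen with earlier results of these data known. The rule for named genes took 180 called genes, some of which are not reported here: those with 3 reads or fewer in a group, the largest changes, the largest shifts in mRNA, the largest changes of chromosome 12 and up to 5 members per list. Beside them 24 list members were chosen after their values were seen. Genes of near-identical families were left out of the rule. The alternatives were edgeR 4.0.16 (also against a fold of 1.5) and DESeq2 1.42.0 on the recovered reads, other size factors, filters, pseudocounts and thresholds, the pair of groups alone, a replicate block, leaving out each library or chromosome 12, and the FPKM table.

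Same-numbered libraries did not deviate together (residual correlations of -0.00885, 0.0144 and 0.00709), so the numbers were not taken as pairs. The chi-square per degree of freedom between libraries of 1 group was 1.06 to 1.32, where 1 is counting error alone. In data simulated for KO2 against control with 9515 genes passing the filter, the test recovered 32% of genes changed 1.3-fold, 98% at 2-fold, 98% at 4-fold and 100% at 8-fold, and called 14 unchanged genes. Only 50 genes were changed at each fold, with a spread set in advance, whereas 2152 genes were called in the data. Adjustment of p-values depends on that number, so these shares are not the power of the comparison itself. Positions are from the mm10 annotation.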

Additional observations from a re-analysis of the deposited data

Results flagged for a closer look

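Of the genes named for the size of their change, for 3 reads or fewer in a group or for their place on chromosome 12, 8 were called in opposite directions in the clones and differed between them in the KO2 minus KO1 contrast. The clones share their control libraries, and the KO2 minus KO1 contrast does not use them for its difference. Each gene's log2 difference KO2 minus KO1 is given with its values. Usp18, which encodes the protease that brakes interferon receptor signalling, read 46.2, 55 and 53.5 normalised reads in control, 2.83, 8.84 and 5.9 in KO2 and 344, 351 and 366 in KO1, a difference of -5.80 (adjusted p = 9.66e-33, limma). Ly6e read 3107, 3192 and 3114 in KO1, a difference of -2.51 (adjusted p = 1.05e-51, limma). Both genes belong to the interferon-induced list, whose median was below control in KO2 and above it in KO1.

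Angptl2 differed by 4.01 (adjusted p = 1.65e-23, limma), with the KO2 libraries at 142, 146 and 137 and the KO1 libraries at 10.3, 4.99 and 9.15 around a control level of 29.5 ± 4.65. Car2 differed by -1.72 (adjusted p = 1.19e-42, limma), lower than control in KO2 and higher in KO1. Mpeg1 read 1347, 1299.6 and 1334 in KO1 and differed by -1.29 (adjusted p = 8.52e-33, limma).

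Hspa5 and Hyou1, chaperone genes of the endoplasmic reticulum, were below control in KO2 and above it in KO1. Hspa5 read 6691, 6641 and 6812 in KO1 and differed by -0.85 (adjusted p = 9.46e-35, limma). Hyou1 read 1559, 1605 and 1610.3 in control, 976, 976 and 950.0 in KO2 and 2047, 1978 and 2088 in KO1, a difference of -1.07 (adjusted p = 1.62e-32, limma). Etv1, an ETS factor gene of chromosome 12, read 101, 111 and 114 in control, 73.6, 100.1 and 73.2 in KO2 and 173, 165 and 186 in KO1, a difference of -1.09 (adjusted p = 5.82e-12, limma). The KO2 call of Etv1 against control was lost with DESeq2 (adjusted p = 0.0812) and on the FPKM table (adjusted p = 0.0787). Its direction in each clone was opposite to the median of chromosome 12 in that clone.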

How the results depend on the processing

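The 2152 calls were 2234 with edgeR's quasi-likelihood test, 1581 at an adjusted p under 0.01 and 1840 to 1913 on leaving out a library. DESeq2 called 1396, of which 716 were lower, and off chromosome 12 it called 1254, 548 higher and 706 lower. Against a fold of 1.5 edgeR called 421, 169 higher and 252 lower, and off chromosome 12 it called 401, 154 higher and 247 lower. The median of chromosome 12 was 0.28 with DESeq2, 0.26 with library totals, without a filter or with a pseudocount of 5, 0.29 with a filter of 50, 0.27 on the FPKM table and 0.26 to 0.29 on leaving out a library. Its SD over the KO2 libraries was 0.0057, which the moves on leaving out a KO2 library did not reach. With the replicate number as a block 2171 genes were called, and the numbers did not pair the libraries. With library totals as size factors 924 genes were higher and 1243 lower. Over the 204 genes chosen by the rule or beside it 4031 of 4215 alternative values kept direction and call, 184 lost the call and 0 changed direction, and 177 genes kept it under all but the test against a fold of 1.5. On the FPKM table the calls of 9 of these genes were lost, among them Abca1, Canx and Nod2 (adjusted p = 0.0683, 0.0655 and 0.054, limma) and Etv1, Csf1r, Sel1l and Klf4, whose values stand beside them. Of 660 alternative list medians 20 had the opposite sign, none in a list with a median of 0.1 or more in size. In simulated data with 50 genes changed at each fold most 1.3-fold changes were missed, which does not give the power of this comparison.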

Other observations

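Of 16 listed pluripotency genes, which include Zscan10 itself, 11 had 0 reads in all 6 libraries of KO2 and control. Of these 16, 3 passed the filter. Fbxo15 was under 10 in every control library and passed through the clones, where it is higher, so a count of rises over the 3 has no weight. Dnmt3l, a cofactor of DNA methyltransferases, read 7.85, 12.8 and 6.29 normalised reads in control, 29.2, 24.5 and 23.6 in KO2 and 9.28, 11 and 10.2 in KO1 (adjusted p = 8.48e-05 for KO2 against control, limma). Fbxo15, an embryonic stem cell marker gene of mouse, read 4.36, 4.91 and 3.15 in control and 19.8, 7.85 and 13 in KO2 (adjusted p = 0.0011, limma), against 13.4, 12 and 16.3 in KO1. Klf4 read 8.72, 13.7 and 9.44 in control and 17, 19.6 and 20.1 in KO2, and its call (adjusted p = 0.0321, limma) was lost with DESeq2, without a filter on low values, on the FPKM table and without Control replicate 1, Control replicate 3, KO2 replicate 2 or KO2 replicate 3 (adjusted p = 0.0534 to 0.198). The defining genes Pou5f1 and Sox2 were at 0 reads in all 6.

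Off chromosome 12 the 10-Mb window with the lowest median among 173 with at least 20 tested genes was the first of chromosome 17, which does not hold Zscan10. Its 26 tested genes had a median log2 change of -0.27 in KO2, with 10 lower and 2 higher, and -0.12 in KO1. The window holds copies of Tagap and of Tmem181 between which reads may be split.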
